A study of Mus musculus with 8 samples.

Results

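Mpo, Elane, Prtn3, Ctsg, Ngp, Camp, S100a8, S100a9, Lyz2 and Itgam are 10 genes of granulocytes and other myeloid cells, and their transcripts were followed here through sorted mouse B-cell progenitors. They were taken from a list of symbols, each symbol was matched to its Entrez identifier, and all 10 were among the 27179 genes of the count table. RNA-seq covered 8 libraries of bone marrow cells, 2 biological replicates for each of 4 populations. B-cell progenitors at the pre-proB, the proB and the preB stage, in their order of development, were sorted from Erg fl/fl mice, which carry floxed Erg alleles and no Rag1Cre allele. The remaining population, called Erg-deficient below, was sorted at the pre-proB stage from the Rag1Cre T/+;Erg Δ/Δ genotype, in which Cre is driven by Rag1 regulatory sequences and deletes Erg from the common lymphoid progenitor onwards. The mice were 7 to 10 weeks old. Because the Erg fl/fl mice carry no Cre, an effect of Cre and one of Erg loss cannot be told apart. The gates listed for the 3 stages required B220 and lack of IgM, IgD, CD11c and the NK cell antigen recognised by anti-NK1.1, and separated the stages by CD43 and CD24. They do not name CD11b, the product of Itgam, or Gr1, but antibodies to both were among those used for staining in the study, and cells could be selected or depleted by lineage before sorting. Whether this was done for the populations described here is not stated in the sources used. The labels do not say whether the Erg fl/fl stages came from the same 2 mice.

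Granulocytes build their granules in sequence. Promyelocytes make the primary (azurophil) granules, which hold myeloperoxidase and the serine proteases neutrophil elastase, proteinase 3 and cathepsin G, encoded by Mpo, Elane, Prtn3 and Ctsg, and these genes are shut off as the cells mature. Myelocytes and metamyelocytes then make the secondary granules, whose contents include the cathelicidin encoded by Camp and the related neutrophilic granule protein encoded by Ngp. S100a8 and S100a9 encode the subunits of calprotectin, an abundant cytosolic protein of neutrophils that sequesters zinc and manganese. Lyz2 encodes lysozyme of granules and macrophages, and Itgam encodes CD11b, which pairs with the beta chain CD18, encoded by Itgb2, on neutrophils, monocytes, NK cells and some dendritic cells. PU.1 and the C/EBP factors are the established activators of granule gene promoters, and Erg itself belongs to the ETS family, as does PU.1.

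The genes lie in pairs or clusters in several cases. Prtn3 and Elane are neighbours on chromosome 10, 3.14 kb apart, S100a8 and S100a9 lie 22.6 kb apart on chromosome 3, and Camp and Ngp lie 570 kb apart on chromosome 9. RefSeq gave a promoter, taken as 250 bases before to 50 after the start of transcription, for 10 of the 10 genes. A 7-base core of PU.1 and ETS sites, GAGGAAG, was found on either strand in the promoters of 6 genes, Mpo, Elane, Prtn3, Ctsg, S100a8 and Itgam, against 13.5% of 27025 promoters, and all 4 genes of the primary granules held it. The C/EBP letters TTGCNNAA, on either strand, were found in 2, Ngp and S100a9, against 10.8% of all promoters. The letters were chosen after these promoters had been seen and a match shows only that the letters are present. The stretches below are shown because the primary granule genes shared the PU.1 and ETS letters and because the secondary granule gene Ngp held the other motif. They are from RefSeq (GRCm38.p6), 5′ to 3′ on the strand of the gene, with the matches in capitals; in S100a8 the match is on the opposite strand and reads as its reverse complement.
Mpo (chr11:87793535-87793591, plus strand): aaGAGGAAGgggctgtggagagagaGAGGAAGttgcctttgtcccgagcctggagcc
Elane (chr10:79886202-79886258, plus strand): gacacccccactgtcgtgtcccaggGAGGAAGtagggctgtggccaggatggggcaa
Prtn3 (chr10:79879547-79879603, plus strand): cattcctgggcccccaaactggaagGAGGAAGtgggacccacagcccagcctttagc
Ctsg (chr14:56102759-56102815, minus strand): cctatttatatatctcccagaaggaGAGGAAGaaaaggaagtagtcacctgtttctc
S100a8 (chr3:90668875-90668931, plus strand): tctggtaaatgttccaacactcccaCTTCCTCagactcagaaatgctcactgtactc
Ngp (chr9:110419645-110419702, plus strand): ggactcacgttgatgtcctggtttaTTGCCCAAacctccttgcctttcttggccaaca
Counted to its first base, the printed match lies 224 bases before the start of Mpo (a further match precedes it at 247), 85 before Elane, 95 before Prtn3, 216 before Ctsg, 171 before S100a8 and 138 before Ngp. In Ngp a further match, on the opposite strand and not printed, lies 11 bases before the start.

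Library totals ran from 15565381 to 18457632 counts, and levels are given as CPM (counts scaled to library size) after TMM scaling of the totals. The targeted gene Erg had 69.1 and 25.3 CPM in control pre-proB (replicates 1 and 2), with 144 and 127 at the proB stage, 19.6 and 28.7 at the preB stage and 2.50 and 2.58 in Erg-deficient pre-proB, so it was lowest where it was deleted. The 7 listed B-lineage genes summed to 1250 and 681 CPM in control pre-proB, to 3350 to 4410 in proB and preB, and to 392 and 389 in Erg-deficient pre-proB. Pre-proB libraries of both genotypes held genes of plasmacytoid dendritic cells at high level, with 6 genes summing to between 8920 and 10700 CPM against 409 to 761 in proB and preB. The 2 control pre-proB libraries therefore differed from each other in B-lineage content. Erg differed 2.73-fold between them, and replicate 1 was the higher in both measures. Together the 10 genes took 0.00656% to 0.0483% of the counts of a library, so their transcripts were a minor component everywhere. In such bulk samples fewer expressing cells and less RNA in each cell cannot be told apart.

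The granule and calprotectin genes followed 2 courses, which the plot of levels by library shows. The 4 primary granule genes were highest in pre-proB cells of both genotypes, with a summed level of 88.0 ± 12.6 CPM (SD, n = 2) in controls and 69.9 ± 18.6 in Erg-deficient cells, and lowest in preB at 4.11 ± 1.20. Ngp, Camp, S100a8 and S100a9 summed to 60.2 ± 31.9 CPM in control pre-proB, 231 ± 147 in proB and 31.8 ± 16.4 in preB, and were lowest in Erg-deficient pre-proB at 12.2 ± 0.955. Lyz2 lay between the blocks, and Itgam was at a similar level throughout.

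**Figure D1:**
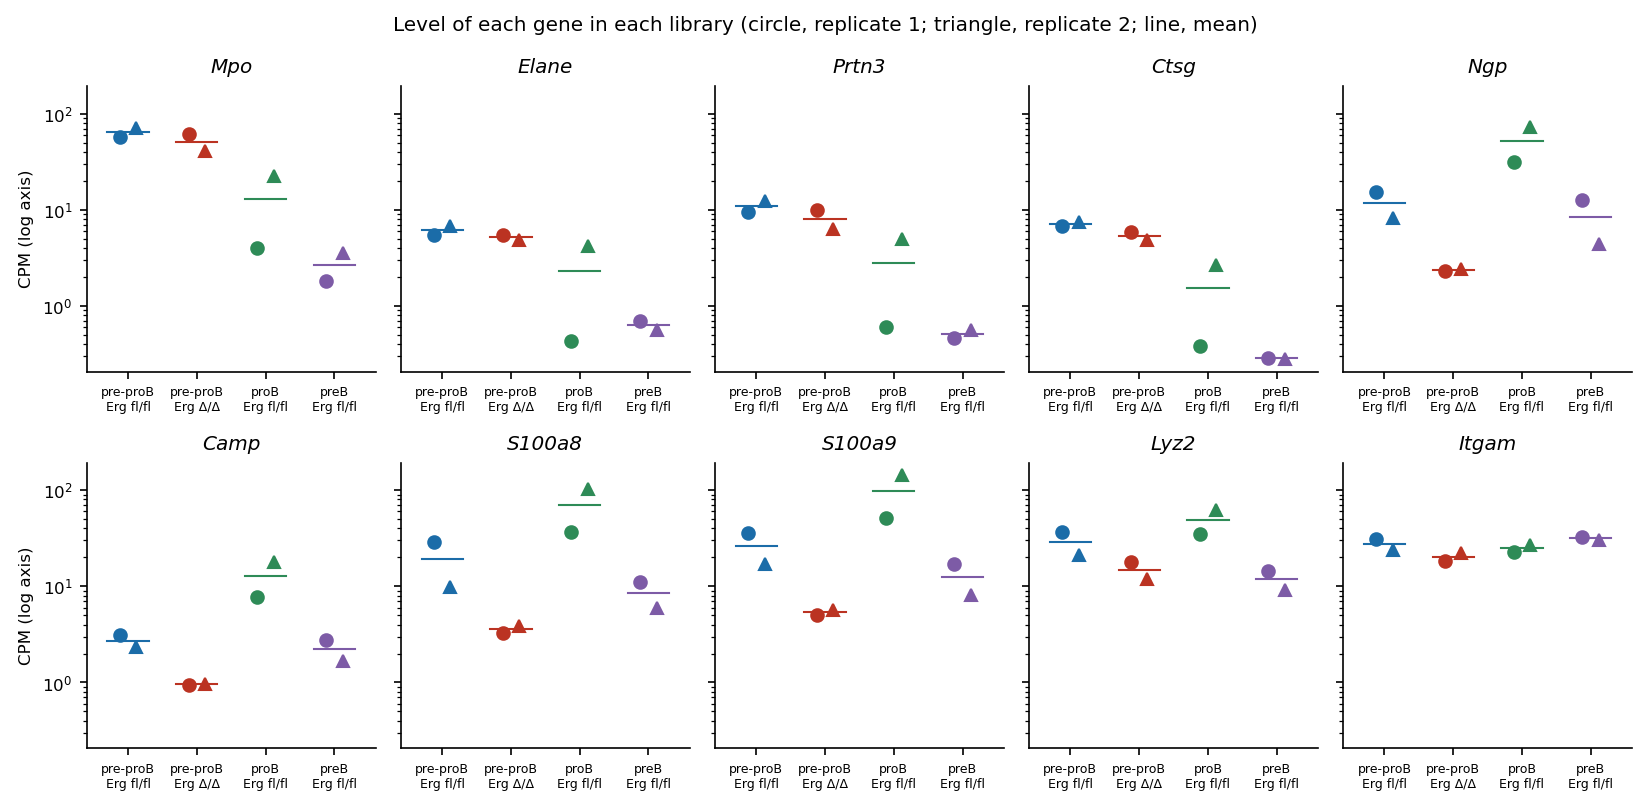
CPM on a log axis for each of the 10 genes in the 8 libraries, with a circle for replicate 1, a triangle for replicate 2 and a line for the mean of each population. Mpo, Elane, Prtn3 and Ctsg step down from pre-proB to preB, Ngp, Camp, S100a8 and S100a9 peak in proB, and the proB triangle lies above the circle in every panel.

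Mpo had the highest mean level per length of the primary granule genes, although its spread overlapped that of Elane in preB, at 0.781 ± 0.361 against 0.641 ± 0.0964 FPKM (CPM per kilobase of exon; SD, n = 2). In proB Mpo was at 3.83 ± 3.78 FPKM, and the means of Elane, Prtn3 and Ctsg were 2.37, 1.61 and 1.48. That SD reflects the difference between the 2 libraries, and within each of them Mpo was the highest of these genes per length. In preB Elane was the higher in replicate 1 and Mpo in replicate 2. In CPM Mpo was at 57.4 and 70.4 CPM in control pre-proB (replicates 1 and 2), 61.9 and 40.6 in Erg-deficient pre-proB, 3.99 and 22.3 in proB, then 1.80 and 3.55 in preB. The control and Erg-deficient values overlapped, and the 3 Erg fl/fl stages did not. Mpo fell from pre-proB to proB by 2.23 on the log2 scale (SE 0.529, adjusted p = 0.00462) and from proB to preB by 2.29 (SE 0.730, adjusted p = 0.0248).

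Elane, encoding neutrophil elastase, was at 5.52 and 6.75 CPM in control pre-proB, 5.44 and 4.91 in Erg-deficient pre-proB, 0.437 and 4.22 in proB, then 0.698 and 0.563 in preB. The 2 proB libraries lay on either side of the preB values. Neither step along the stages passed the test for Elane, with log2 fold changes of -1.34 (SE 0.649, adjusted p = 0.0914) and -1.88 (SE 0.847, adjusted p = 0.0859). From pre-proB directly to preB it fell by 3.23 (SE 0.791, adjusted p = 0.00570).

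Prtn3, its neighbour, was at 9.43 and 12.3 CPM in control pre-proB, 9.87 and 6.26 in Erg-deficient pre-proB, 0.601 and 4.99 in proB, then 0.465 and 0.563 in preB. Ctsg was at 6.74 and 7.41 CPM in control pre-proB, 5.87 and 4.91 in Erg-deficient pre-proB, 0.382 and 2.67 in proB, then 0.291 and 0.282 in preB. In both genes the 3 stages did not overlap, although proB replicate 1 lay close to preB. Prtn3 fell by 1.91 (SE 0.610, adjusted p = 0.0199) and then by 2.43 (SE 0.870, adjusted p = 0.0393), and Ctsg by 2.15 (SE 0.556, adjusted p = 0.00726), with a log2 fold change of -2.40 at the second step (SE 0.847, adjusted p = 0.0375). Over the whole course from pre-proB to preB the log2 fold changes were -4.53 for Mpo, -4.34 for Prtn3 and -4.55 for Ctsg, with adjusted p of 0.000306, 0.00109 and 0.000533.

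The proB replicates disagreed more over the primary granule genes than over any other block of members. The summed level was 5.41 CPM in proB replicate 1 and 34.2 in replicate 2, a 6.32-fold difference, against 1.22-fold between the control pre-proB libraries, 1.47-fold between the Erg-deficient and 1.52-fold between the preB libraries. For single genes the ratio of proB replicate 2 to replicate 1 was 5.59 for Mpo, 7.00 for Ctsg, 8.30 for Prtn3 and 9.65 for Elane. Genes that mark the B lineage did not separate the same libraries, since the 7 B-lineage genes summed to 3530 and 3350 CPM in them and Erg differed 1.14-fold. The fall from proB to preB rests on proB replicate 2. Without it the log2 fold changes were -0.58 for Mpo (adjusted p = 0.234), -0.23 for Prtn3 (adjusted p = 0.753), -0.42 for Ctsg (adjusted p = 0.642) and 0.51 for Elane (adjusted p = 0.467). Without preB replicate 1 or without preB replicate 2 the same 3 genes also missed the threshold, at -1.88 to -2.91 and adjusted p of 0.0837 to 0.167. The fall from pre-proB to proB kept its direction without either proB library and was larger without replicate 2, at -4.00 for Mpo, -3.79 for Elane, -4.16 for Prtn3 and -4.18 for Ctsg, with adjusted p of 2.56e-05 to 0.000133. Without proB replicate 1 these values were -1.47, -0.49, -1.08 and -1.35, and Elane was not called (adjusted p = 0.143). Without preB replicate 2 the step of Prtn3 from pre-proB to proB missed the threshold at adjusted p = 0.0556. Robust estimation ended the calls of Mpo and Prtn3 at the first step (adjusted p = 0.0930 and 0.135) and of Mpo, Prtn3 and Ctsg at the second (adjusted p = 0.189, 0.189 and 0.111).

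The secondary granule genes took the opposite course at the first step. Ngp was at 15.3 and 8.27 CPM in control pre-proB, 2.31 and 2.45 in Erg-deficient pre-proB, 31.7 and 73.2 in proB, then 12.6 and 4.39 in preB. Camp was at 3.08 and 2.31 CPM in control pre-proB, 0.937 and 0.968 in Erg-deficient pre-proB, 7.70 and 17.7 in proB, then 2.79 and 1.69 in preB. For both genes the proB libraries were the 2 highest of the 8 and the Erg-deficient libraries the 2 lowest, while control pre-proB and preB overlapped. Ngp rose from pre-proB to proB by 2.20 on the log2 scale (SE 0.493, adjusted p = 0.00348) and Camp by 2.28 (SE 0.410, adjusted p = 0.000997). From proB to preB Ngp fell by 2.63 (SE 0.509, adjusted p = 0.00236) and Camp by 2.50 (SE 0.416, adjusted p = 0.00106).

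S100a8 was at 28.8 and 9.91 CPM in control pre-proB, 3.25 and 3.87 in Erg-deficient pre-proB, 36.6 and 102 in proB, then 11.1 and 5.92 in preB. S100a9 was at 35.5 and 17.1 CPM in control pre-proB, 5.06 and 5.62 in Erg-deficient pre-proB, 51.7 and 142 in proB, then 16.9 and 8.17 in preB. The calprotectin genes thus had the same order of populations as Ngp and Camp, with S100a8 of control pre-proB replicate 2 inside the preB range. S100a8 rose at the first step by 1.89 (SE 0.545, adjusted p = 0.0125) and fell at the second by 3.03 (SE 0.596, adjusted p = 0.00259). For S100a9 the values were 1.92 (SE 0.496, adjusted p = 0.00720) and -2.95 (SE 0.536, adjusted p = 0.00170). The rise of the calprotectin genes rests on proB replicate 2, without which it was 0.92 for S100a8 (adjusted p = 0.161) and 0.98 for S100a9 (adjusted p = 0.0830). Without control pre-proB replicate 2 the rise of S100a8 was 1.28 (adjusted p = 0.0514). Ngp and Camp remained called without proB replicate 2, at 1.43 (adjusted p = 0.0388) and 1.52 (adjusted p = 0.00511), and the second step remained called for all 4 genes without any 1 library. Robust estimation ended the calls of Ngp, S100a8 and S100a9 at the first step (adjusted p = 0.0814, 0.141 and 0.113) and at the second (adjusted p = 0.0688, 0.0734 and 0.0615), and left those of Camp.

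Within this block too, proB replicate 2 was the higher, by 2.30-fold for Camp, 2.31-fold for Ngp, 2.74-fold for S100a9 and 2.79-fold for S100a8. The excess was smaller than for the primary granule genes. Control pre-proB differed the other way, since replicate 2 was at 0.344 of replicate 1 for S100a8, 0.483 for S100a9, 0.539 for Ngp and 0.750 for Camp. In the same 2 libraries the primary granule genes were 1.10 to 1.31 times as high in replicate 2, while Erg and the B-lineage sum were lower in it, as given above. Whether the B-lineage content of these libraries has a part in the calprotectin difference was not tested.

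Lyz2 was at 36.3 and 21.3 CPM in control pre-proB, 17.9 and 11.9 in Erg-deficient pre-proB, 34.7 and 62.5 in proB, then 14.4 and 9.13 in preB. Control pre-proB and proB overlapped, and Erg-deficient pre-proB overlapped preB. Lyz2 rose from pre-proB to proB by 0.80 (SE 0.318, adjusted p = 0.0486), a call lost in 12 of 16 alternative analyses, and then fell by 2.04 (SE 0.345, adjusted p = 0.00115). Without proB replicate 2 the rise was 0.27 (adjusted p = 0.487) and without control pre-proB replicate 2 it was 0.43 (adjusted p = 0.244). Its near-identical neighbour Lyz1 could share reads with Lyz2, but Lyz1 had at most 3 counts in a library.

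Itgam was the one member without a call in any comparison. It was at 31.1 and 23.8 CPM in control pre-proB, 18.5 and 22.1 in Erg-deficient pre-proB, 22.8 and 27.1 in proB, then 32.7 and 30.3 in preB. The control pre-proB libraries overlapped those of proB and of preB. The log2 fold changes were -0.10 from pre-proB to proB (SE 0.136, adjusted p = 0.533) and 0.34 from proB to preB (SE 0.134, adjusted p = 0.0570). The first of these turned to 0.05 without control pre-proB replicate 1 and to 0.03 without proB replicate 1. Other integrin chains of leukocytes fell steeply over the same step. Itgb2 (CD18), the partner chain of CD11b, fell from 412 and 473 CPM in pre-proB to 60.3 and 63.7 in proB. Itgal, the alpha chain of LFA-1, fell from 773 and 834 to 72.0 and 84.7. Itgax (CD11c) fell from 326 and 405 to 3.06 and 5.14, and Itgad from 74.9 and 68.3 to 2.79 and 2.26. All 4 of these listed integrin genes were called lower in proB than in pre-proB, with log2 fold changes of -2.80 to -6.43. Over all genes 36.8% were called lower at that step.

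Counting calls over the members, 8 of 10 passed the test between proB and pre-proB, 5 higher in proB and 3 lower. Among all 13650 genes tested in the stages 36.2% were called higher and 36.8% lower in that comparison, so a call by itself says little about a member, and the direction and size carry the description. Between preB and proB 8 of 10 were called and all were lower in preB, with 29.9% of all genes called lower and 29.0% higher. Between preB and pre-proB 5 of 10 were called, all lower in preB, against 34.1% lower and 36.5% higher over all genes. The median log2 fold change over the members was 0.35, -2.42 and -1.19 in these comparisons, against medians between 0.00 and 0.04 in size over all genes. All 10 members passed the filter on low counts, for which 0.5 CPM in 2 libraries was enough. The comparisons share libraries and are not independent.

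From pre-proB directly to preB, Mpo, Elane, Prtn3 and Ctsg were called, as given above, with Lyz2, which fell by 1.25 (SE 0.356, adjusted p = 0.0123). Ngp, Camp, S100a8 and S100a9 had log2 fold changes of -0.43, -0.22, -1.14 and -1.03 and did not pass (adjusted p from 0.141 to 0.689), nor did Itgam at 0.24 (adjusted p = 0.142). Without preB replicate 2 only 3 members were called, since Elane was at -3.11 (adjusted p = 0.0631) and Lyz2 at -0.98 (adjusted p = 0.118). Without control pre-proB replicate 1 Lyz2 was at -0.88 (adjusted p = 0.0580). Without control pre-proB replicate 2 S100a8 and S100a9 were called as well, at -1.76 (adjusted p = 0.0254) and -1.50 (adjusted p = 0.0463), and S100a9 was also called without proB replicate 1 or proB replicate 2.

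**Figure D2:**
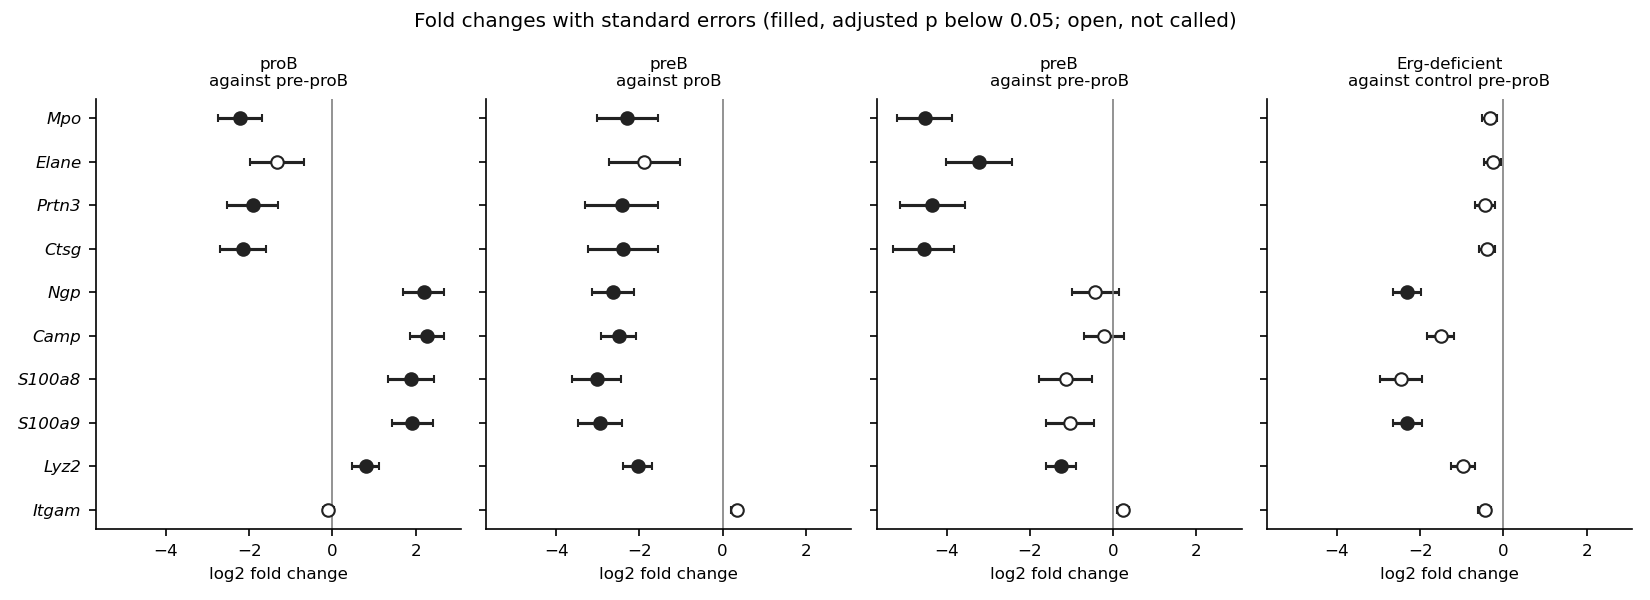
Log2 fold change with its standard error for each gene in the 3 comparisons of Erg fl/fl stages and in the comparison of genotypes, filled where the adjusted p was below 0.05. Primary granule genes lie left of 0 in all 3 stage comparisons and between -0.44 and -0.26 for the genotypes, and Ngp, Camp, S100a8 and S100a9 lie right of 0 in the first panel and left of it in the second and the last.

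In the comparison of Erg-deficient with control pre-proB cells all 10 members had a negative log2 fold change and 2 were called. Ngp fell by 2.32 (SE 0.336, adjusted p = 0.0353), from 11.8 CPM in controls to 2.38, and S100a9 fell by 2.31 (SE 0.353, adjusted p = 0.0407), from 26.3 to 5.34. These were the 2 calls among 10 members, with 0.946% of 13005 genes called lower and 0.215% called higher. S100a8 and Camp were lower in both Erg-deficient libraries than in either control but did not pass, at -2.46 (SE 0.502, adjusted p = 0.0845) and -1.50 (SE 0.325, adjusted p = 0.0971). Lyz2 at -0.96 (SE 0.287, adjusted p = 0.226) and Itgam at -0.45 (SE 0.158, adjusted p = 0.315) were also below the controls in both libraries and did not pass. For Mpo the log2 fold change was -0.33 (SE 0.189, adjusted p = 0.531), for Elane -0.26 (SE 0.200, adjusted p = 0.653), for Prtn3 -0.44 (SE 0.245, adjusted p = 0.516) and for Ctsg -0.40 (SE 0.189, adjusted p = 0.452). A p that misses the threshold does not show that the primary granule genes were equal between genotypes. At an unadjusted p below 0.05, 6 of 10 members differed, with 12.5% of all genes at that level. The median over the members was -0.70, against 0.01 over all genes.

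The calls between genotypes depended on single libraries and on the method. Without control pre-proB replicate 2 there were 6 called members, with 3.16% of all genes called, and Camp, S100a8, Lyz2 and Itgam were added at -1.72, -3.05, -1.32 and -0.65. Without control pre-proB replicate 1 there were 3, against 0.847% of all genes, with S100a8 added at -1.48 and with Ngp and S100a9 at -1.79 and -1.68. Without Erg-deficient replicate 1 or replicate 2 there were 0, by edgeR, with adjusted p of 0.200 to 0.263 for Ngp and S100a9, where 7 and 5 members had an unadjusted p below 0.05, against 12.5% and 10.3% of all genes. DESeq2 called 4 members and 3.08% of all genes. The log2 fold changes of Ngp stayed between -2.72 and -1.79 and those of S100a9 between -2.77 and -1.68 over 14 alternatives. B-lineage genes moved with this difference. Besides the sums given above, all 7 listed genes had counts in every library. Of these, 5 of 7 were called lower, against 0.946% of all genes, among them Ebf1, Vpreb1, Igll1 and Cd79a at -5.06 to -6.68. Among 6 NK cell genes 4 were called higher, against 0.215% of all genes. The 6 NK cell genes summed to 28.2 and 31.4 CPM in controls and 89.2 and 157 in Erg-deficient cells, and all 6 had counts in every library. Their part in the difference of Ngp and S100a9 was not tested.

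The make-up of the myeloid transcripts was also taken within each library, as a description without a test between populations. Primary granule genes made up 34.5% (95% exact binomial interval 33.0 to 36.1) and 53.9% (52.1 to 55.8) of the counts of the 10 genes in control pre-proB. In Erg-deficient pre-proB they made up 63.4% (61.3 to 65.5) and 54.7% (52.2 to 57.1). In proB the shares were 2.84% (2.31 to 3.44) and 7.44% (6.91 to 8.01), and in preB 3.47% (2.63 to 4.48) and 7.69% (6.21 to 9.38). The proB and preB libraries thus had a lower primary granule share than any pre-proB library, the second replicates of the 2 genotypes overlapped, and replicates differed beyond counting error in every population. These intervals cover counting error only. Ngp, Camp, S100a8 and S100a9 made up 36.1% and 20.9% of the counts in control pre-proB, 8.83% and 12.5% in Erg-deficient pre-proB, 67.0% and 73.0% in proB, then 46.3% and 31.3% in preB.

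**Figure D3:**
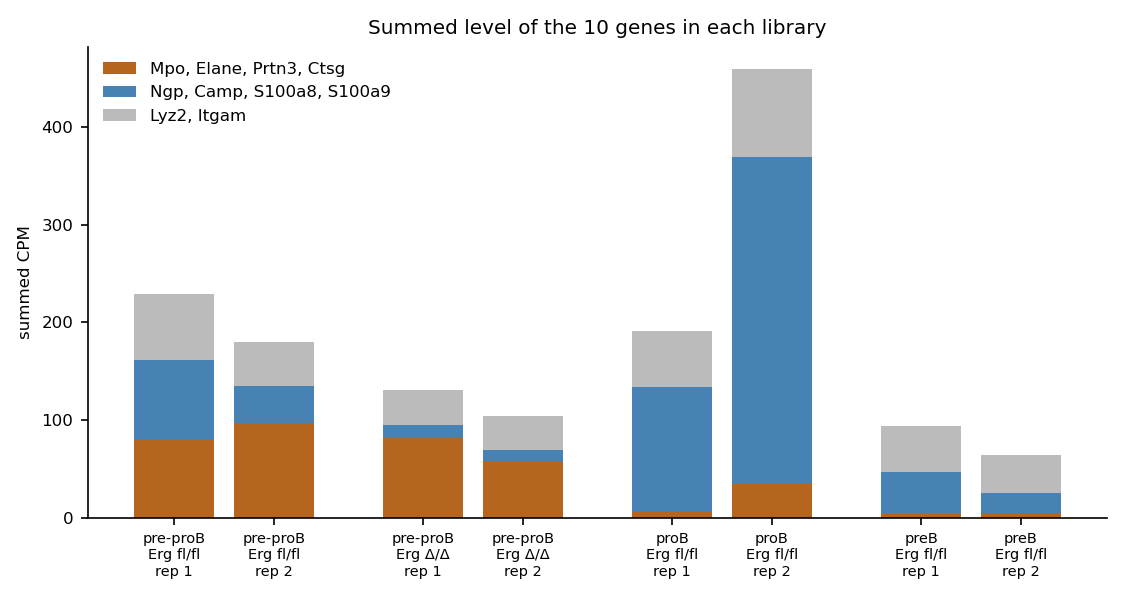
Stacked bars of the summed CPM of the primary granule genes (brown), of Ngp, Camp, S100a8 and S100a9 (blue) and of Lyz2 with Itgam (grey) in each library. The proB replicate 2 bar is the tallest at 459 CPM, the preB replicate 2 bar the shortest at 64.5, and brown dominates over blue in the Erg-deficient bars and in control pre-proB replicate 2.

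In the pairs compared, the share of 1 gene varied less from library to library within a block than between the blocks. S100a8 was 36.6% to 44.8% of the counts of S100a8 and S100a9 in the 8 libraries, although their sum ran from 133 to 4745 counts. The lowest and highest shares were the 2 control pre-proB libraries, whose intervals, 32.1 to 41.3 and 41.7 to 48.0, did not overlap. Camp was 16.7% to 28.8% of Camp and Ngp, with 19.5% in both proB libraries, and the 8 intervals shared a common range. Prtn3 was 13.1% to 20.5% of Prtn3 and Mpo, and Ctsg 7.35% to 13.9% of Ctsg and Mpo, again with overlapping intervals in all 8 libraries. Other pairs of 1 block varied more. Elane was 8.08% to 10.8% of Elane and Mpo in the 4 pre-proB libraries, 9.88% (4.36 to 18.5) and 15.9% (12.9 to 19.4) in proB and 27.9% (15.3 to 43.7) and 13.7% (6.77 to 23.8) in preB. Ngp was 30.2% (27.0 to 33.5) of Ngp and S100a9 in control pre-proB replicate 1, 38.0% (35.6 to 40.5) in proB replicate 1 and 42.7% (38.4 to 47.1) in preB replicate 1, intervals of which the first overlapped neither of the others.

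Between the blocks the spread was wider. Mpo was 61.8% (59.3 to 64.3) and 80.4% (78.3 to 82.4) of the counts of Mpo and S100a9 in control pre-proB and 92.4% (90.7 to 93.9) and 87.8% (85.2 to 90.2) in Erg-deficient pre-proB. It was 7.16% (5.65 to 8.91) and 13.6% (12.4 to 14.8) in proB and 9.63% (6.64 to 13.4) and 30.3% (24.1 to 37.0) in preB. The 4 pre-proB libraries all lay above the other 4, and each Erg-deficient library lay above each control. The 2 preB libraries lay apart, because replicate 2 had more Mpo and less S100a9 than replicate 1.

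**Figure D4:**
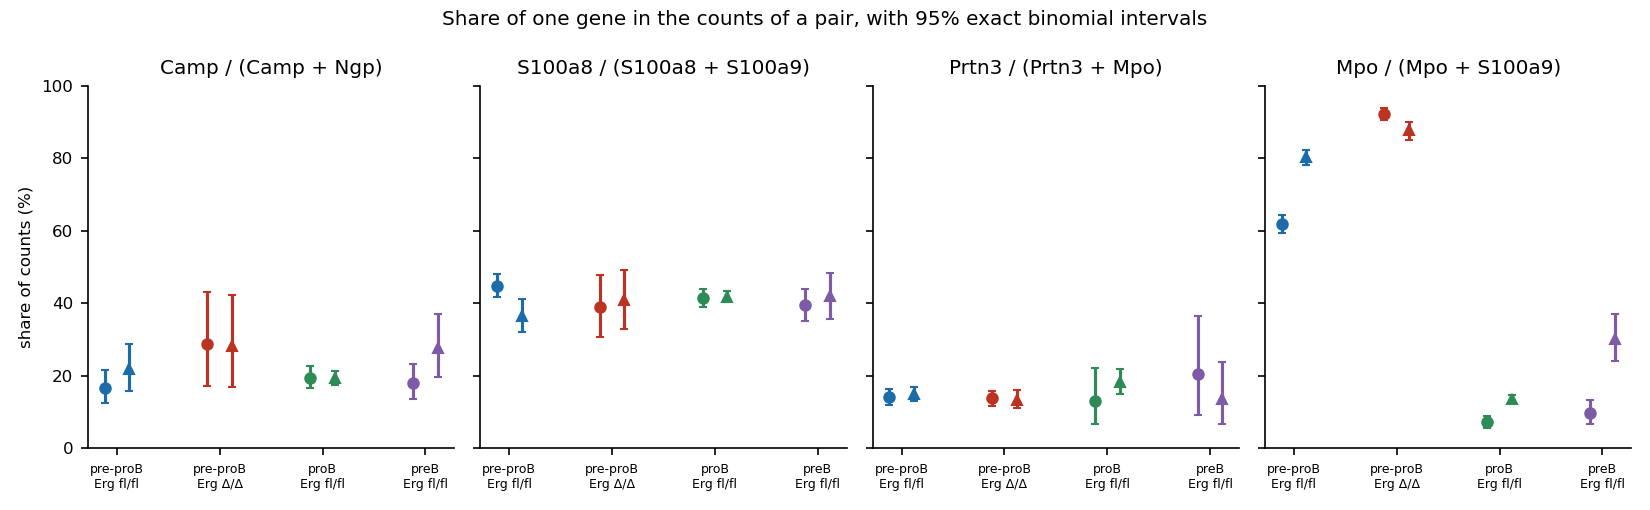
Share of 1 gene in the summed counts of a pair, in percent, for each library, with 95% exact binomial intervals (circle, replicate 1; triangle, replicate 2). The first 3 panels pair genes of 1 block, where the shares run from 16.7% to 28.8%, 36.6% to 44.8% and 13.1% to 20.5%, whereas Mpo against S100a9 runs from 7.16% to 92.4%.

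Per length, which allows levels of different genes to be set side by side, the order of means in control pre-proB was S100a9 at 50.4 ± 24.9 FPKM (SD, n = 2), S100a8 at 27.9 ± 19.3, Lyz2 at 21.9 ± 8.08 and Mpo at 18.7 ± 2.67. S100a9 was the highest in each of the 2 libraries, and the order of S100a8, Lyz2 and Mpo was reversed between them. In Erg-deficient pre-proB Mpo led in each library, with a mean of 15.0 ± 4.39 FPKM. Lyz2 at 11.3 ± 3.19 and S100a9 at 10.2 ± 0.752 followed, in an order that differed between the libraries. In proB S100a9 was at 185 ± 122 FPKM and S100a8 at 100 ± 66.8, followed by Ngp at 43.0 ± 24.0 and Lyz2 at 36.9 ± 14.9. Prtn3 at 1.61 ± 1.79 and Ctsg at 1.48 ± 1.57 were lowest there, in an order that differed between the libraries. In preB S100a9 stood at 24.0 ± 11.8 FPKM and Itgam at 6.26 ± 0.34, and Prtn3 and Ctsg were the lowest at 0.297 ± 0.0402 and 0.277 ± 0.00612. FPKM were computed from the CPM and the summed exon length of each gene in GENCODE, which is not the annotation used for counting.

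Lists of other granule, neutrophil, monocyte, transcription factor and integrin genes were examined, and 38 of these genes are plotted. The shares called in these lists are to be read against 36.2% higher and 36.8% lower over all genes between proB and pre-proB. Among 10 other genes of secondary and tertiary granules, 5 were called higher and 2 lower in proB than in pre-proB. Ltf, encoding lactoferrin, was at 10.4 and 4.74 CPM in control pre-proB, 1.00 and 0.968 in Erg-deficient pre-proB, 19.1 and 40.8 in proB, then 6.22 and 1.86 in preB, which is the order of populations of Ngp and Camp. It rose from pre-proB to proB by 2.03 (adjusted p = 0.00632) and was the one gene of the list called between genotypes, where it fell by 2.95 (SE 0.448, adjusted p = 0.0405). Chil3, a chitinase-like protein of granules, rose by 2.06 from pre-proB to proB (adjusted p = 0.00240). The 2 lower ones were Cybb and Cyba, the subunits of the NADPH oxidase cytochrome, which many phagocytes and dendritic cells share. Cybb was at 1160 and 1230 CPM in control pre-proB, 1360 and 1290 in Erg-deficient pre-proB, 37.4 and 50.2 in proB, then 68.9 and 78.3 in preB. From proB to preB 8 of the 10 fell and 2 rose, where 29.9% of all genes were called lower and 29.0% higher. Cd177, a neutrophil surface protein, was at -3.16, Pglyrp1, a peptidoglycan recognition protein, at -2.89 and Chil3 at -2.79. Cd177 did not share the course of Ltf, with 14.3 and 11.6 CPM in control and 12.7 and 13.7 in Erg-deficient pre-proB. It was at 4.64 and 10.3 in proB, then 1.05 and 0.620 in preB. Between genotypes the log2 fold changes were 0.01 for Cd177 and 0.28 for Pglyrp1, neither called, against a median of -1.29 over the 10 genes.

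Among 8 other genes placed with the primary granules, 4 were called lower and 2 higher in proB than in pre-proB. Prss57, a granule serine protease, was at 6.87 and 9.42 CPM in control pre-proB, 2.95 and 2.11 in proB, then 0.581 and 0.394 in preB, and fell at both steps, with log2 fold changes of -1.66 (adjusted p = 0.000428) and -2.35 (adjusted p = 0.000700). Unlike Mpo it was not higher in proB replicate 2. Clec12a, an inhibitory lectin receptor of myeloid and dendritic cells, was at 391 and 385 CPM in control pre-proB and 10.4 and 15.3 in proB. Ctsc, which activates the granule serine proteases, fell by 0.54 (adjusted p = 4.27e-05). The 2 that rose were Serpinb1a, an inhibitor of those proteases, from 19.7 and 12.8 CPM to 71.5 and 72.8 in proB, and Fcnb, the granule lectin ficolin-B, by 2.15 (adjusted p = 0.00329). Srgn, the serglycin core protein that packs granule contents, was at 235 to 291 CPM in every library. Between genotypes 7 of the 8 could be tested and 1 passed, Nkg7, which is also a granule gene of NK cells, at 1.61 (adjusted p = 0.0494).

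Of 8 genes of mature neutrophils 6 could be tested between stages, of which 2 rose and 1 fell from pre-proB to proB and 5 fell and 1 rose from proB to preB. At the latter step 29.9% of all genes were called lower and 29.0% higher. Retnlg, a secreted resistin-like protein, was at 3.99 and 17.7 CPM in proB, with proB replicate 2 again the higher, and Mxd1, a widely expressed repressor, was at 21.9 to 52.8 CPM in all libraries. Csf3r, the receptor of the granulocyte growth factor G-CSF, was at 2.84 and 14.3 CPM in proB, then 0.814 and 0.789 in preB, and fell by 3.41 (adjusted p = 0.00390). Ly6g, the gene of the Gr1 antigen of neutrophils, was present at no more than 0.874 CPM and had 0 counts in Erg-deficient replicate 1. The list had counts for all 8 genes in 4 of the libraries, and its sum was 44.4 to 48.9 CPM in control pre-proB, 43.8 to 56.2 in Erg-deficient pre-proB, 30.9 and 68.3 in proB and 35.6 to 39.0 in preB. Most of it was Mxd1 except in proB replicate 2, so it does not describe the other genes. Mxd1 was at 37.6 and 38.0 CPM in control and 52.8 and 41.2 in Erg-deficient pre-proB. Retnlg was at 5.01 and 1.94 against 0.750 and 0.452, and Csf3r at 3.66 and 3.83 against 2.06 and 1.42. None of the 3 genes that could be tested between genotypes passed by edgeR.

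Monocyte and macrophage genes followed pre-proB cells of both genotypes. Of 10 listed, 6 were called lower and 1 higher in proB than in pre-proB, and 0 of 10 were called between genotypes by edgeR. Ly6c2, a surface antigen of monocytes and plasmacytoid dendritic cells, was at 624 and 754 CPM in control pre-proB, 965 and 814 in Erg-deficient pre-proB, 12.3 and 18.6 in proB, then 3.60 and 4.56 in preB. Cd68, a lysosomal protein, fell by 4.55 (adjusted p = 6.22e-09) from pre-proB to proB, where the log2 fold change of Ms4a6c was -3.22 and that of the chemokine receptor Ccr2 was -4.93. The list summed to 1180 to 1510 CPM in the 4 pre-proB libraries and 52.6 to 86.4 in the other 4, and Cd14 had 0 counts in 1 proB and 1 preB library.

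The transcription factors that act on granule genes also parted. Cebpa, encoding C/EBPα, was at 22.8 and 24.4 CPM in control pre-proB, 25.2 and 33.2 in Erg-deficient pre-proB, 0.328 and 0.823 in proB, then 0.233 and 0.282 in preB, and fell from pre-proB to proB by 5.29 (adjusted p = 3.99e-07). Cebpd, with a log2 fold change of -4.00, and Irf8, a factor of monocytes and dendritic cells, with -4.16, fell too. Cebpe, a further C/EBP gene of the list, was too low to be tested. It had 4 and 5 counts in control pre-proB, 3 and 3 in Erg-deficient pre-proB, 6 and 20 in proB, then 2 and 3 in preB. Gfi1, a repressor that acts in granulocytes and lymphocytes, rose by 2.50 (adjusted p = 6.33e-06). Spi1, encoding PU.1, was at 47.4 and 54.3 CPM in control pre-proB, 54.9 and 55.4 in Erg-deficient pre-proB, 54.7 and 53.6 in proB, then 82.8 and 88.5 in preB, and rose from proB to preB by 0.67 (adjusted p = 0.000157). Over the list of 8, 7 could be tested, 1 rose and 5 fell from pre-proB to proB, and 0 passed between genotypes by edgeR.

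**Figure D5:**
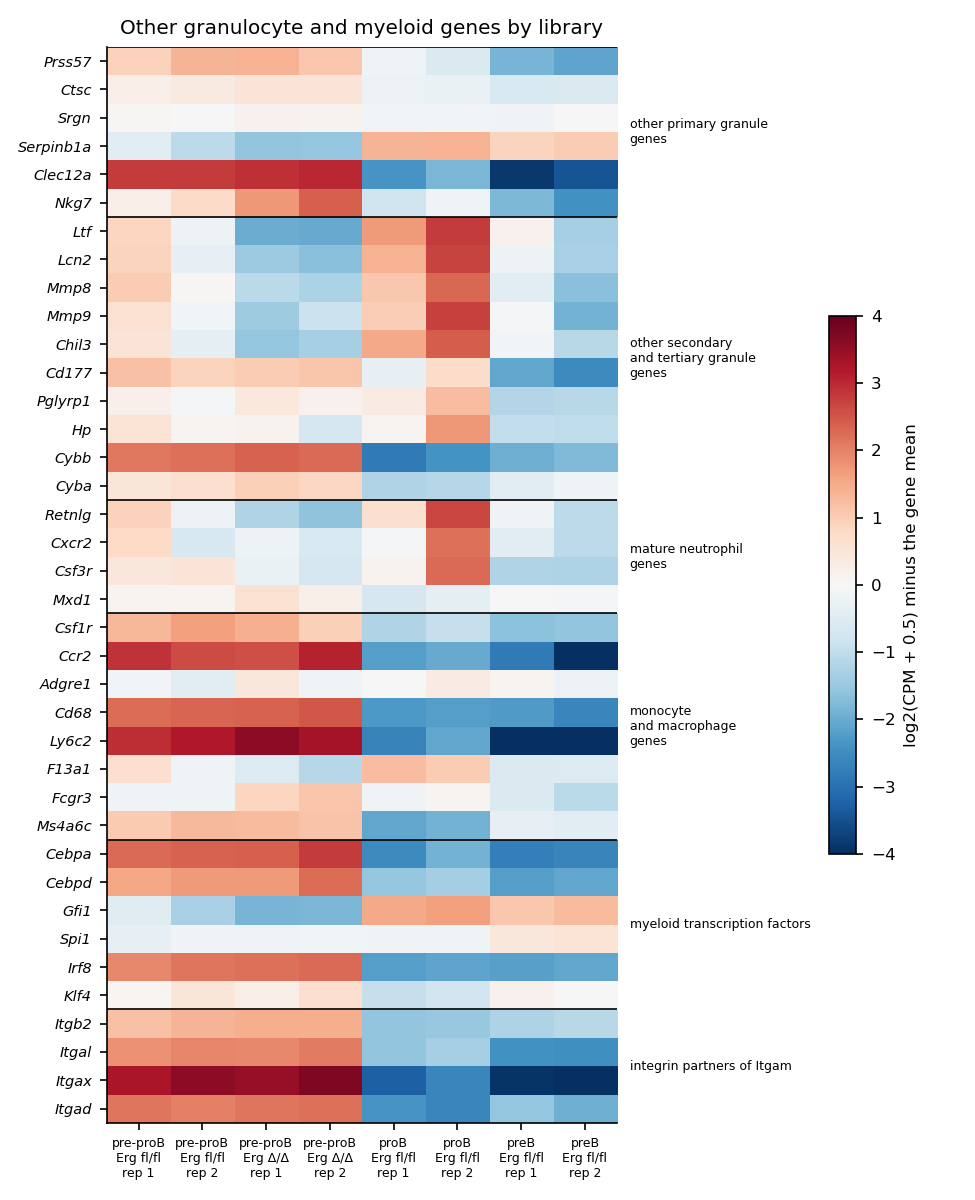
Heat map of log2(CPM + 0.5) minus the mean of the gene over the 8 libraries for 38 other listed genes with a mean of at least 1 CPM, red for above and blue for below the mean. Ltf, Lcn2, Mmp8, Mmp9, Chil3 and Retnlg are reddest in proB replicate 2 and blue in the Erg-deficient libraries, and Clec12a, Cybb, Ccr2, Ly6c2, Cebpa and Itgax are red in all 4 pre-proB libraries and blue in the others.

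Markers of basophils, mast cells and eosinophils, other granulated cells, were low. The 6 genes of basophils, mast cells and eosinophils summed to 1.94 to 8.49 CPM in a library, 4 of 6 had counts in every library, and only Cpa3, a mast cell protease, was called between any populations, lower in proB by 1.51 (adjusted p = 0.0204) and in preB than in pre-proB by 3.14 (adjusted p = 0.00181). Of 7 erythroid genes in the table, all with counts in every library, 6 rose from pre-proB to proB, against 36.2% of all genes. Their sums were 9.18 to 15.8 CPM in the pre-proB libraries, 113 and 116 in proB and 71.6 to 74.8 in preB. Most of the proB sum was Car2, a carbonic anhydrase, at 93.5 and 93.2 CPM, and Hba-a2, an alpha globin gene, was at 7.48 and 7.51. In preB Car2 was at 41.2 and 43.2 CPM and Hba-a2 at 13.2 and 10.4. From proB to preB Hba-a2 and Alas2 were called higher, with log2 fold changes of 0.66 and 0.57, and only Car2 lower, at -1.14. Over all genes 29.0% were called higher and 29.9% lower at that step. The 2 proB libraries were alike in these genes, unlike in Mpo and Elane.

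Over the 8 libraries the gene whose log2(CPM + 0.5) was most like the mean of the 10 members was Igsf6, a receptor of myeloid cells (Pearson r = 0.960), followed by Ffar2, a receptor for short-chain fatty acids on neutrophils (0.957), Col4a5 (0.951), Csf3r (0.947) and Hp, encoding haptoglobin (0.936). Abca13, Hmcn2, Rundc3b, Tgfbi and Dph1 completed the 10 genes, at 0.918 to 0.928. All but Rundc3b and Dph1 averaged under 4 CPM, and the libraries share their population within each pair of replicates, so these are descriptions over 13815 genes. Taken by block, which was done after the values were seen, Wfdc17 (0.998), Clec7a (0.985) and Nanos1 (0.982) were most like the primary granule genes and Chil3 (0.996), Ltf (0.994) and Lcn2 (0.993) most like Ngp, Camp, S100a8 and S100a9.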

How the data were processed

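RNA-seq covered 3 sorted stages (pre-proB, proB, preB) of Erg fl/fl bone marrow and the pre-proB stage of Rag1Cre T/+;Erg Δ/Δ bone marrow, 2 biological replicates each, 8 libraries. The authors trimmed the reads with Trim Galore, aligned them to mm10 with STAR, counted them with featureCounts and Rsubread's Entrez annotation, and deposited raw counts for 27179 identifiers. The sources used here do not give the aligner's version, the strand setting or the treatment of multi-mapped reads. Which mouse gave which library is not labelled, so p-values measure the spread between these libraries.

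Symbols, coordinates and promoters came from RefSeq (GRCm38.p6), which matched 25275 identifiers, and exon lengths from GENCODE M21. The other identifiers, with 0.577% of the counts, were kept in every fit. CPM used TMM factors over the 8 libraries. Fold changes came from edgeR 4.0.16 in R 4.3.3 (legacy quasi-likelihood F-tests), 1 fit of the 6 Erg fl/fl libraries and 1 of the 4 pre-proB libraries, with genes kept at 0.5 CPM or more in 2 or more of its libraries. A gene was called at a Benjamini-Hochberg adjusted p below 0.05, adjusted over all genes of the fit. The standard error (SE) was taken as log2 fold change over root F. The procedure was tested on simulated data. With 2 libraries against 2 an exact permutation test of a single gene cannot go below p = 0.33 and was not used. A gene with 3 counts, the limit that a count of 0 allows, lies at 0.154 to 0.194 CPM, depending on the library.

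The members and the lists of other genes were chosen with earlier results of these data known. One gene of the B-lineage list is not reported here and was left out of its sums and counts. The genes named are all members, the 2 genes of each list with the highest mean CPM and up to 4 called genes of it with the lowest p, and the 10 genes most like the mean of the members. Erg, Ly6g, Cd14, Fcnb, Cebpe and genes named for the plot of other genes or as most like a block were named outside that rule, after their values were seen. Alternatives were DESeq2 1.42.0 or its size factors, library totals, no filter or 1 CPM, limma-voom (limma 3.58.1), edgeR's version 4 quasi-likelihood, robust estimation, all 8 libraries in one fit, a block for replicate number, and leaving out single libraries, where the one library remaining in a population was given the spread of the rest. Figures were drawn with matplotlib 3.10.9.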

Additional observations from a re-analysis of the deposited data

How the results depend on the processing

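The number of called members between proB and pre-proB, 8 of 10 as reported, was 2 with robust estimation and 6 to 9 otherwise. Between preB and proB it was also 8, with 2 under robust estimation and 5 to 9 when 1 library was left out. Between preB and pre-proB it was 5, with 3 under robust estimation and 3 to 7 when 1 library was left out. Between genotypes it was 2, with 1 when library totals replaced TMM, 4 by DESeq2, 0 by limma-voom, 0 by edgeR's version 4 quasi-likelihood, 0 with robust estimation, 0 with all 8 libraries in one fit and 0 to 6 when 1 library was left out. In the analyses without a call 4 to 7 members had an unadjusted p below 0.05, against 10.3% to 14.9% of all genes. In the 3 stage comparisons the low counts under robust estimation were not shared by all genes. There 9952, 8040 and 9642 genes were called, against 9961, 8035 and 9649 as reported. Between genotypes it called 110 genes, against 151. The cause was not tested. Analyses of all libraries called 54.2% to 75.7% of all genes between proB and pre-proB and 42.9% to 61.9% between preB and proB. As reported, 70.7% were called between preB and pre-proB and 1.16% between genotypes.

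The labels do not say whether libraries of the same number share a mouse, and the correlation of replicate differences between populations over 13815 genes was -0.03 to 0.12, so the numbers were not taken as pairs. With the replicate number as a block the counts of called members were 8, 8, 5 and 3. In the first 2 of these comparisons 73.6% and 60.6% of all genes were called. Elane was called between proB and pre-proB (-1.57, adjusted p = 0.0438) in place of Lyz2 (0.81, adjusted p = 0.0668), and Lyz2 was added between genotypes (-0.95, adjusted p = 0.0220). Directions were reversed in 6 cases, each without 1 library and none called. Itgam from pre-proB to proB became 0.05 and 0.03 (range over libraries left out -0.31 to 0.05), Elane from proB to preB 0.51 (-2.73 to 0.51), Ngp from pre-proB to preB 0.01 and 0.11 (-1.36 to 0.11), and Camp 0.07 (-0.61 to 0.07). Over all 40 values of single genes 533 of the alternatives kept direction and side of the threshold, 60 lost the call and 21 gained it. With 2 libraries in a population, 1 library often decides a call, and genes such as Ctsg and Elane rested on 5 to 12 counts in the preB libraries and in proB replicate 1.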
